A study of Medicago truncatula with 16 samples.

Results

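The tissue by PEG interaction at 1 mm is the difference between cotyledons and radicles in their response to polyethylene glycol (PEG), taken gene by gene as (C1P - C1) - (R1P - R1) on the log2 scale in RNA-Seq of germinating *Medicago truncatula* seeds. Its members are the 8 libraries of seeds with a 1 mm radicle, of 16 libraries in the series, and the 25524 genes, of 44473 in the count table, that passed a filter on low counts. The groups were chosen by their labels alone. C1 and R1 were cotyledons and radicles dissected from cultivar A17 seeds with a protruded radicle of 1 mm. C1P and R1P were the same tissues after 3 days in a PEG8000 solution of -1.7 MPa at 10 °C in the dark. Each group held 2 biological replicates, each a pool of dissected seeds. Untreated seeds were not held at 10 °C in the dark, and the PEG response therefore includes any effect of those 3 days. The labels and methods speak both of desiccated and of freshly harvested material, so it is not settled whether the tissue had been dried before RNA extraction.

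Orthodox seeds withstand drying at maturity and lose that tolerance soon after the radicle emerges. Mild osmotic stress at this stage is known to bring tolerance back in radicles, together with transcripts typical of late seed maturation, such as those of storage proteins, oil body proteins, late embryogenesis abundant (LEA) proteins and enzymes of raffinose-type sugars. Cotyledons store most of the reserves of a legume seed, whereas the radicle is the organ that grows first. The interaction asks in which genes the response to PEG differed between these tissues. A positive value means that a gene rose more, or fell less, in cotyledons, and a negative value that it rose more, or fell less, in radicles. Since the same number is also (C1P - R1P) - (C1 - R1), it gives the change in the tissue difference over the treatment.

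The 8 libraries held 22012976 to 23257652 estimated counts each, which puts 3 counts at between 0.111 and 0.192 counts per 1000000 (CPM, scaled to library totals adjusted by TMM). One library stood apart. In C1P replicate 2, chloroplast-encoded genes took 4.06% of all counts, against 0.723% in C1P replicate 1, 0.328 and 0.477% in C1, and 0.046 to 0.141% in R1 and R1P. The share in the 8 libraries of 5 mm seeds reached 0.923% at most. The C1P replicates also had the lowest correlation of log2 CPM among the 8 groups of the series, at 0.952 against 0.968 to 0.984, and the smallest TMM factor, 0.709, belonged to C1P replicate 2. The numbers of called genes and several leading values, though not every gene, are therefore given with and without this library. The tissue labels were checked against photosynthesis genes, since markers fixed by symbol could not be looked up for these identifiers. Of 82 chloroplast-encoded genes, 45 were called higher in C1 than in R1 and 0 lower, and of 9 nuclear photosynthesis genes, 6 were higher and 2 lower. Over all 25524 genes tested, 5878 were called higher and 5720 lower. In bulk tissue, fewer cells of a type and less RNA per cell cannot be told apart.

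**Figure D1:**
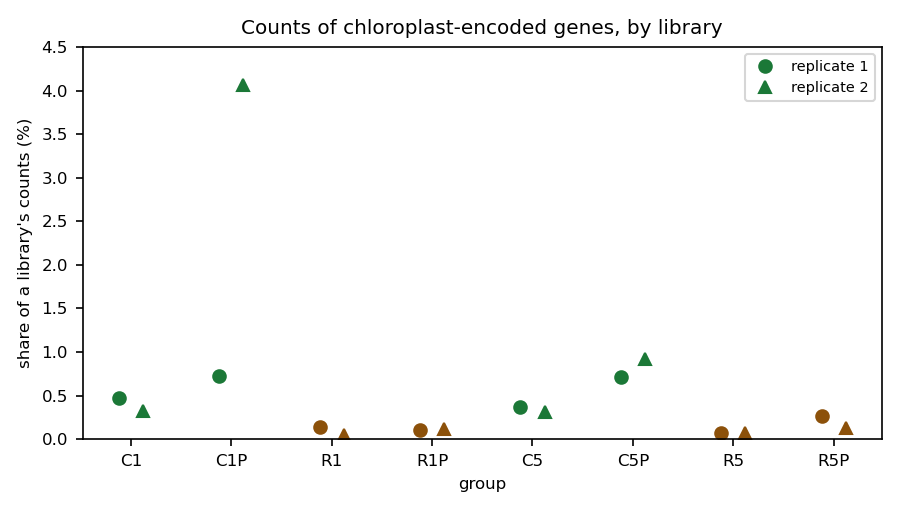
Share of each library's estimated counts, in percent on the vertical axis, that fell on chloroplast-encoded genes, in the 8 groups of the series (green, cotyledons; brown, radicles; circle, replicate 1; triangle, replicate 2). C1P replicate 2 lies at 4.06% and every other library at 0.923% or less.

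The response to PEG differed between the tissues in 2105 genes, 8.25% of those tested, with an adjusted p below 0.05 and an interaction beyond 1 or -1 on the log2 scale (edgeR's quasi-likelihood test, Benjamini-Hochberg adjustment). Of them, 1064 (4.17%) were higher and 1041 (4.08%) lower in cotyledons. An adjusted p under 0.05 alone was met by 2260 genes. Without C1P replicate 2, 997 genes (3.74% of 26637 tested) were called higher and 927 (3.48%) lower. Of the 2105 genes, 1541 were called in the same direction in that model, 564 were not, and the sign changed in 0. Without C1P replicate 1, 1290 genes (4.84% of 26678) were called higher and 1311 (4.91%) lower, and 1687 of the 2105 genes were called in the same direction. Each of C1 replicates 1 and 2, R1 replicates 1 and 2, and R1P replicates 1 and 2 moved the counts further when left out, to between 552 and 657 higher and between 561 and 656 lower. The split between directions depended on the scaling. With TMM, 50.5% of the called genes were higher in cotyledons, whereas with library totals alone 647 were higher and 1541 lower, a share of 29.6%, and the median interaction of all genes moved by -0.23, from 0.06 to -0.17. Values are therefore read against the median of 0.06, around which the quartiles of all genes lay at -0.63 and 0.73.

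**Figure D2:**
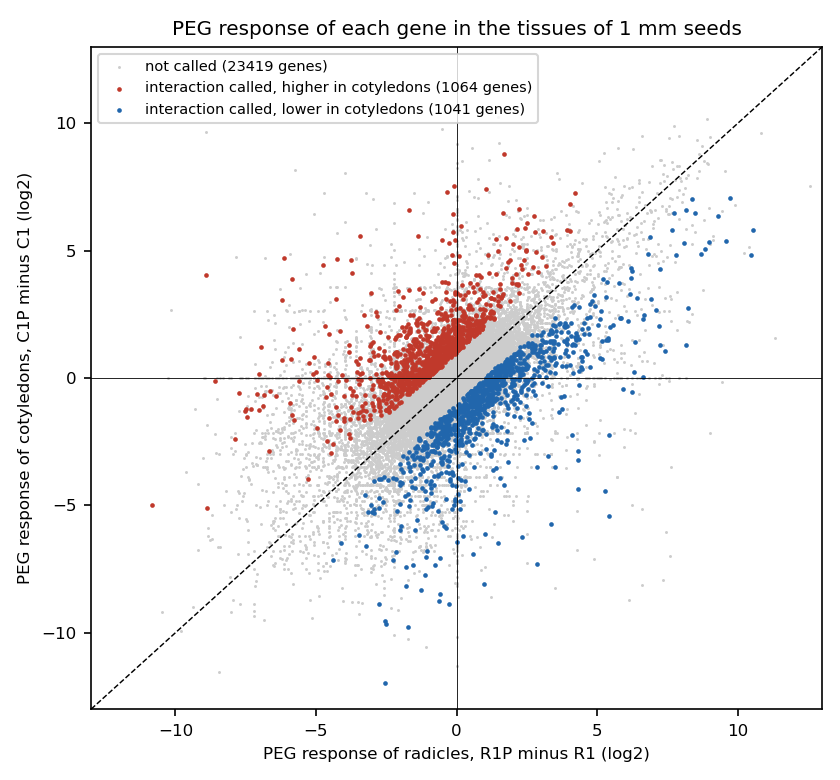
Log2 PEG response of each tested gene in radicles (horizontal axis) and in cotyledons (vertical axis), with the genes called for the interaction in red (1064, higher in cotyledons) and blue (1041, lower in cotyledons). Called genes lie on either side of the dashed line of equal response, and 2 genes fall outside the plotted range of 13 in either direction.

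Most of the response to PEG was not called different between the tissues. In cotyledons 3625 genes (14.2%) were called higher and 3901 (15.3%) lower after PEG, 29.5% in all, and in radicles 3433 (13.5%) higher and 4620 (18.1%) lower, 31.6% in all. Of these, 4251 were called in the same direction in both tissues, and the interaction was called in 356 of them (8.37%), close to its share over all genes. A further 6891 genes were called in 1 tissue and not in the other. The interaction was called in 1416 of these (20.5%), so that for the remaining 5475 genes a call in 1 tissue only was not backed by a called difference. The interaction genes were spread over these classes. There were 381 that fell in radicles and were not called in cotyledons, 328 that rose in radicles and were not called in cotyledons, 356 that rose in cotyledons and were not called in radicles, and 351 that fell in cotyledons and were not called in radicles. There were 93 genes called in opposite directions, 63 of them higher in cotyledons and lower in radicles and 30 the reverse.

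In more of the called genes the difference between the tissues was smaller after PEG than larger. Of the 1064 genes with a higher call, 622 had been called lower in C1 than in R1 before PEG, against 5720 of all 25524 genes tested. The median tissue difference of the 1064 genes was -1.45 before and 0.41 after PEG. Of the 1041 genes with a lower call, 651 had been called higher in C1 than in R1, against 5878 of all 25524 genes tested. The median tissue difference of the 1041 genes went from 1.54 to -0.35. The absolute difference between the tissues was smaller after PEG in 1301 of the 2105 genes (61.8%), against 54.9% of all genes tested. No test was made of this share, because the untreated libraries enter both the tissue difference and the interaction. The median response of the genes with a higher call was 0.94 in cotyledons and -0.96 in radicles, and that of the genes with a lower call was -0.84 and 0.98.

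Of 9 genes annotated as seed storage proteins, 4 rose more in radicles than in cotyledons by a called interaction (44.4%, against 4.08% of all genes called lower), and 5 were not called. All 9 values were below 0, with a median of -1.98 (-2.17 without C1P replicate 2) against 0.06 over all genes. All 9 had risen in radicles and 7 in cotyledons, against 13.5% and 14.2% of all genes called higher, with median responses of 5.39 and 2.14. The genes of this and every other list made by annotation were selected on R1 against R1P or on chromatin accessibility. Libraries used in the first selection enter the interaction, so the directions and shares of these lists are not independent evidence. MtrunA17_Chr7g0261351, annotated as an 11-S seed storage protein, the globulin class of legumins, had 172 and 179 CPM in C1 and 434 and 558 CPM in C1P. In radicles it had 2.91 and 2.81 CPM in R1 and 119 and 121 CPM in R1P. The 4 groups did not overlap, and R1 lay far below the other 3, so the gene rose in both tissues but from a much lower level in radicles. Its interaction was -3.89 (SE 0.30, adjusted p = 3.5e-05) and -4.09 without C1P replicate 2. MtleguminB (MtrunA17_Chr1g0185841) began at similar levels, 3.15 to 6.30 CPM over C1 and R1, and reached 266 and 341 CPM in C1P against 1823 and 1804 CPM in R1P. Its interaction was -1.98 (SE 0.39, adjusted p = 0.0069). Mt2SA3 (MtrunA17_Chr2g0319551), of the 2S albumin type, reached 32.2 and 78.6 CPM in C1P and 184 and 246 CPM in R1P, from below 2 CPM in C1 and R1, with an interaction of -3.82 that lost its call without R1 replicate 1 (-3.10, adjusted p = 0.053). The 11-S gene MtrunA17_Chr1g0185811 had 739 and 724 counts in C1, 590 and 531 in C1P, 2 and 0 in R1 and 56 and 86 in R1P, so it was near its lowest measurable level in R1 alone (called lower, adjusted p = 0.00029). Counts of the 3 11-S genes were not whole in 7 or 8 of the 8 libraries, so part of their reads was divided among similar transcripts.

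All 9 measured genes of the oil body list rose after PEG in both tissues, with median responses of 8.12 in radicles and 6.37 in cotyledons. Of these, 3 had a called interaction, all lower in cotyledons (33.3%, against 4.08% of all genes), while 6 were not called. The median interaction was -0.82, or -1.09 without C1P replicate 2, and 2 of the 9 values were above 0. The AtOLEO4 orthologue MtrunA17_Chr6g0449621, an oleosin, which is a protein of the oil body surface, had 10.4 and 9.83 CPM in C1, 319 and 358 CPM in C1P, 1.599 and 1.921 CPM in R1, and 810 and 824 CPM in R1P. Cotyledons held more of this transcript before PEG and radicles more after it, with no overlap between the groups. The interaction was -3.79 (SE 0.54, adjusted p = 0.0011) and -3.87 without C1P replicate 2. The oleosin MtrunA17_Chr7g0227501 rose from 25.7 and 21.4 to 1661 and 2239 CPM in cotyledons and from 6.15 and 7.99 to 4949 and 3939 CPM in radicles (interaction -2.92, SE 0.37, adjusted p = 0.00042). Another oleosin, MtrunA17_Chr3g0139191, had an interaction of -2.64 (SE 0.57, adjusted p = 0.012), and its call was lost without C1 replicate 1 (-2.43) and without R1 replicate 1 (-2.23, adjusted p = 0.064). Other oil body genes gave no call. The AtOLEO1 orthologue MtrunA17_Chr1g0196841 had an interaction of -0.52 with a 95% interval from -1.71 to 0.66, the oleosin MtrunA17_Chr2g0307331 one of 0.35 (-1.61 to 2.31), and the AtTAG1 orthologue MtrunA17_Chr2g0299671, a diacylglycerol O-acyltransferase of the last step of oil synthesis, one of 0.71 (0.08 to 1.34). None of the 3 was called, and these intervals do not show that the tissues responded alike.

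Of 7 genes of enzymes for raffinose-type sugars, which build up in maturing seeds, 4 were called lower in cotyledons (57.1%, against 4.08% of all genes) and 1 higher (14.3%, against 4.17%), with a median interaction of -1.44 (-1.41 without C1P replicate 2). After PEG 6 of the 7 were called higher and 1 lower in radicles, and 4 higher and 0 lower in cotyledons. The 4 lower genes were all annotated as galactinol-sucrose galactosyltransferase, the enzyme that makes raffinose. MtrunA17_Chr7g0257731 had 10510 and 10310 CPM in C1, 23470 and 19750 CPM in C1P, 529 and 512 CPM in R1, and 13220 and 11670 CPM in R1P. The transcript was abundant in cotyledons at both times and low in R1 only. Its response was 1.05 in cotyledons and 4.58 in radicles, an interaction of -3.53 (SE 0.36, adjusted p = 0.00012). MtrunA17_Chr7g0257741 gave -3.62 (SE 0.62, adjusted p = 0.0031), with C1P replicates far apart at 4361 and 1314 CPM. MtrunA17_Chr4g0058701 went from below 1 CPM in C1 and R1 to 5.98 and 1.73 CPM in C1P and 38.2 and 40.8 CPM in R1P (-4.30, SE 0.79, adjusted p = 0.005). MtrunA17_Chr1g0173521 had the smallest of the 4 interactions, -1.44, and lost its call without R1 replicate 1 (-1.25) and without R1P replicate 1 (-1.29). The gene called higher in cotyledons, MtrunA17_Chr1g0193011, was annotated as inositol 3-alpha-galactosyltransferase, which makes the galactosyl donor galactinol. It was singled out after its values were seen, and had 7.71 and 5.99 CPM in R1, 2.12 and 1.85 CPM in R1P and at most 0.416 CPM in any cotyledon library, so its cotyledon response rests on a few counts. Its call was lost without C1 replicate 2 and without C1P replicate 1.

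**Figure D3:**
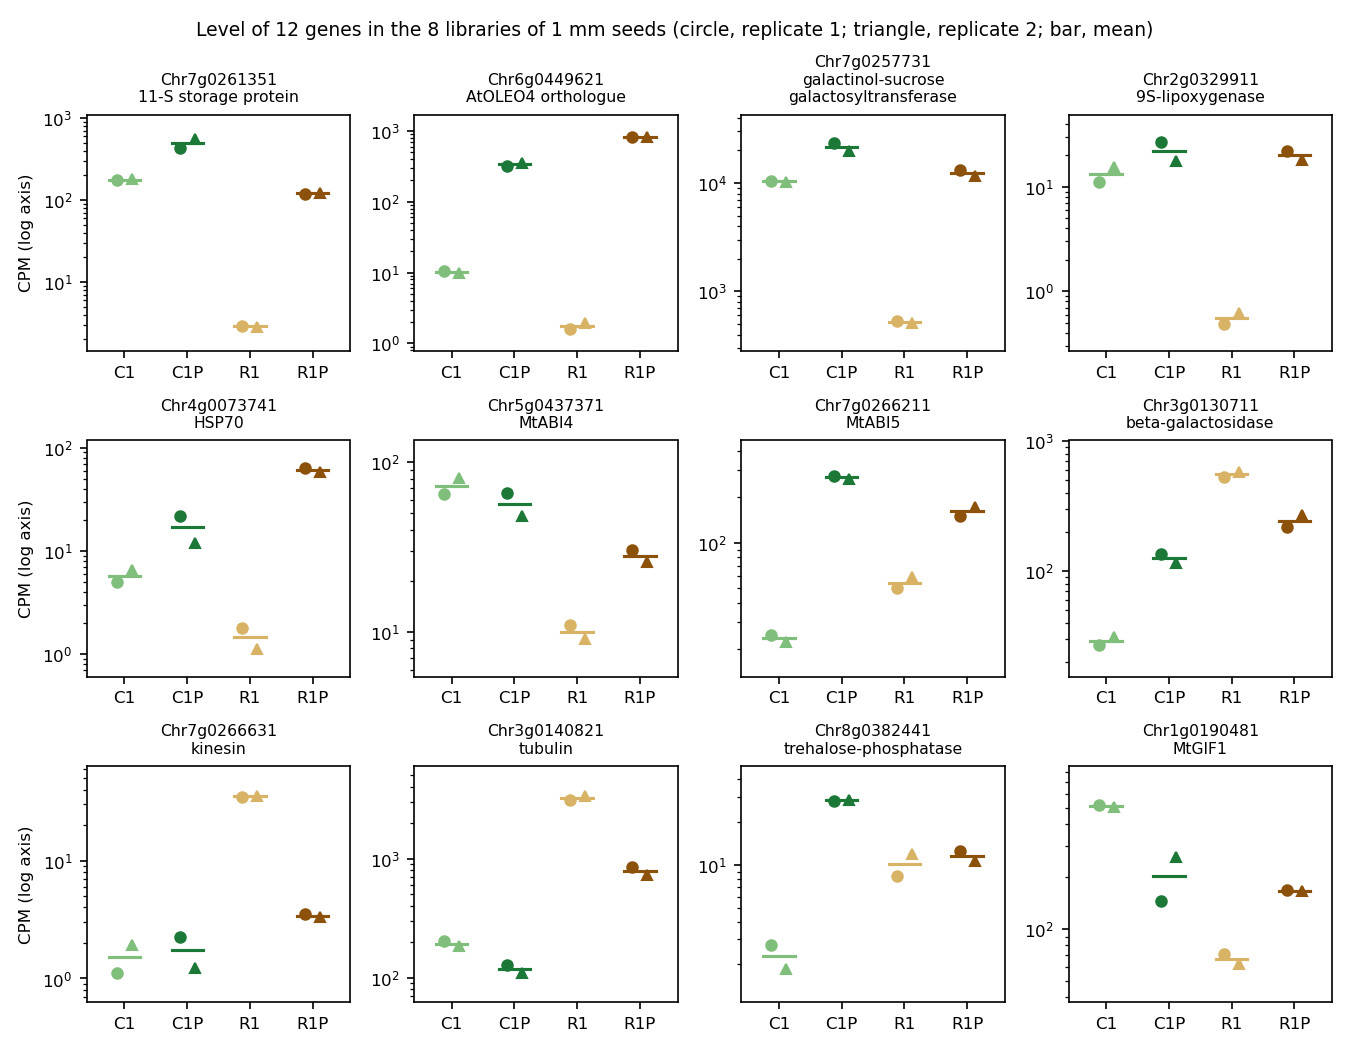
CPM, on a logarithmic vertical axis, of 12 genes in C1, C1P, R1 and R1P (circle, replicate 1; triangle, replicate 2; bar, mean of the 2). In the storage protein, oleosin, galactosyltransferase, lipoxygenase and HSP70 panels R1 is the lowest group, in the kinesin and tubulin panels R1 is the highest, and MtGIF1 falls in cotyledons and rises in radicles.

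Most listed genes of LEA proteins and dehydrins, hydrophilic proteins that protect dry cells, rose in each tissue. Of 20 genes, 17 were called higher after PEG in cotyledons and 18 in radicles, with median responses of 6.86 and 6.56. The interaction was called in 5 of them, 4 lower (20%, against 4.08% of all genes) and 1 higher in cotyledons (5%, against 4.17%), and the median, 0.43, turned to -0.19 without C1P replicate 2. MtEM6 (MtrunA17_Chr4g0007001), a LEA protein of the LEA_5 subgroup, had 3.57 and 2.34 CPM in C1 and 577 and 946 CPM in C1P, against 15.2 and 8.26 CPM in R1 and 2180 and 1654 CPM in R1P. Both tissues rose by a large factor with no overlap, and the interaction of 0.65 (95% interval -0.37 to 1.68) was not called. The intervals were -1.87 to 1.27 for MtPM25 (MtrunA17_Chr1g0205331) and -0.70 to 1.71 for the LEA_2 gene MtrunA17_Chr8g0348171, neither of them called. The LEA_2 gene MtrunA17_Chr8g0348161 differed from these, since it fell in cotyledons, from 19.8 and 17.5 to 2.91 and 4.29 CPM, and had 5.82 and 5.65 CPM in R1 and 9.27 and 8.52 CPM in R1P. Its interaction was -3.01 (SE 0.50, adjusted p = 0.0027). The LEA_3 gene MtrunA17_Chr4g0067471 rose by 3.71 in cotyledons and 5.77 in radicles, and its call (-2.05, adjusted p = 0.011) was lost without R1 replicate 2. The dehydrin HIRD11 gene MtrunA17_Chr7g0253841 was the member called higher, with 39.8 and 26.4 CPM in C1, 544 and 1558 CPM in C1P, 175 and 173 CPM in R1, and 868 and 1071 CPM in R1P. Its value of 2.51 fell to 1.56 without C1P replicate 2, and its call was lost without C1 replicate 2 (2.24) and without R1P replicate 1 (2.36). The dehydrin MtrunA17_Chr3g0144981 and the LEA_2 gene MtrunA17_Chr2g0330241, the latter named after its values were seen, were called lower at -1.57 each, and 6 of the 8 single libraries, when left out, ended either call (adjusted p up to 0.121 and 0.163).

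Among 28 heat shock protein genes, 3 were called lower in cotyledons (10.7%, against 4.08% of all genes) and 0 higher (against 4.17%). The median was 0.12, and it turned below 0 with library totals (-0.02) and without C1P replicate 2 (-0.05). In radicles 13 of the genes were called lower after PEG and 8 higher. The 3 genes with a call, however, rose in radicles. MtrunA17_Chr4g0073741, an HSP70 chaperone gene, had 4.99 and 6.49 CPM in C1, 21.8 and 12.1 CPM in C1P, 1.81 and 1.11 CPM in R1, and 63.9 and 58.4 CPM in R1P (interaction -3.83, SE 0.43, adjusted p = 0.00022). Radicles began below cotyledons and ended above them. The HSP70 gene MtrunA17_Chr4g0031301 had an interaction of -2.16 (SE 0.26, adjusted p = 0.00029) and the HSP20 gene MtrunA17_Chr1g0150811 one of -2.08 (SE 0.40, adjusted p = 0.0057).

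Of 20 genes of defence peptides and proteinase inhibitors, 12 rose in cotyledons and 17 in radicles. The interaction was called in 2, both lower (10%, against 4.08% of all genes). The list's median was -1.04, but -0.20 when the groups of 4 members with at most 3 counts per library were set to 3 counts. MtPDF32 (MtrunA17_Chr2g0317741), a plant defensin, had 61.3 and 55.1 CPM in C1, 145 and 246 CPM in C1P, 0.984 and 1.08 CPM in R1, and 30.0 and 23.7 CPM in R1P. Every cotyledon library lay above every radicle library. The interaction was -2.95 (SE 0.67, adjusted p = 0.016), with the call lost without R1 replicate 1, R1 replicate 2 or R1P replicate 1 (adjusted p = 0.071, 0.067 and 0.059). MtPDF33 (MtrunA17_Chr2g0317751) was not called, at -0.97 (95% interval -2.34 to 0.40). MtPDF51 (MtrunA17_Chr8g0385301), which the annotation lists as an oxidoreductase and which is thus not in this list, reached 7.23 and 18.7 CPM in C1P and 435 and 428 CPM in R1P, from 0.260 to 1.31 CPM in C1 and R1. Its interaction was -3.66 (SE 0.98, adjusted p = 0.034), -4.49 without C1P replicate 2, and the call was lost without C1 replicate 1, C1 replicate 2, R1 replicate 1, R1P replicate 1 or R1P replicate 2 (adjusted p up to 0.196). The Thaumatin family gene MtrunA17_Chr5g0405581 (-1.25, adjusted p = 0.015) was likewise lost without C1 replicate 2, R1 replicate 1, R1 replicate 2 or R1P replicate 2 (adjusted p up to 0.060).

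**Figure D4:**
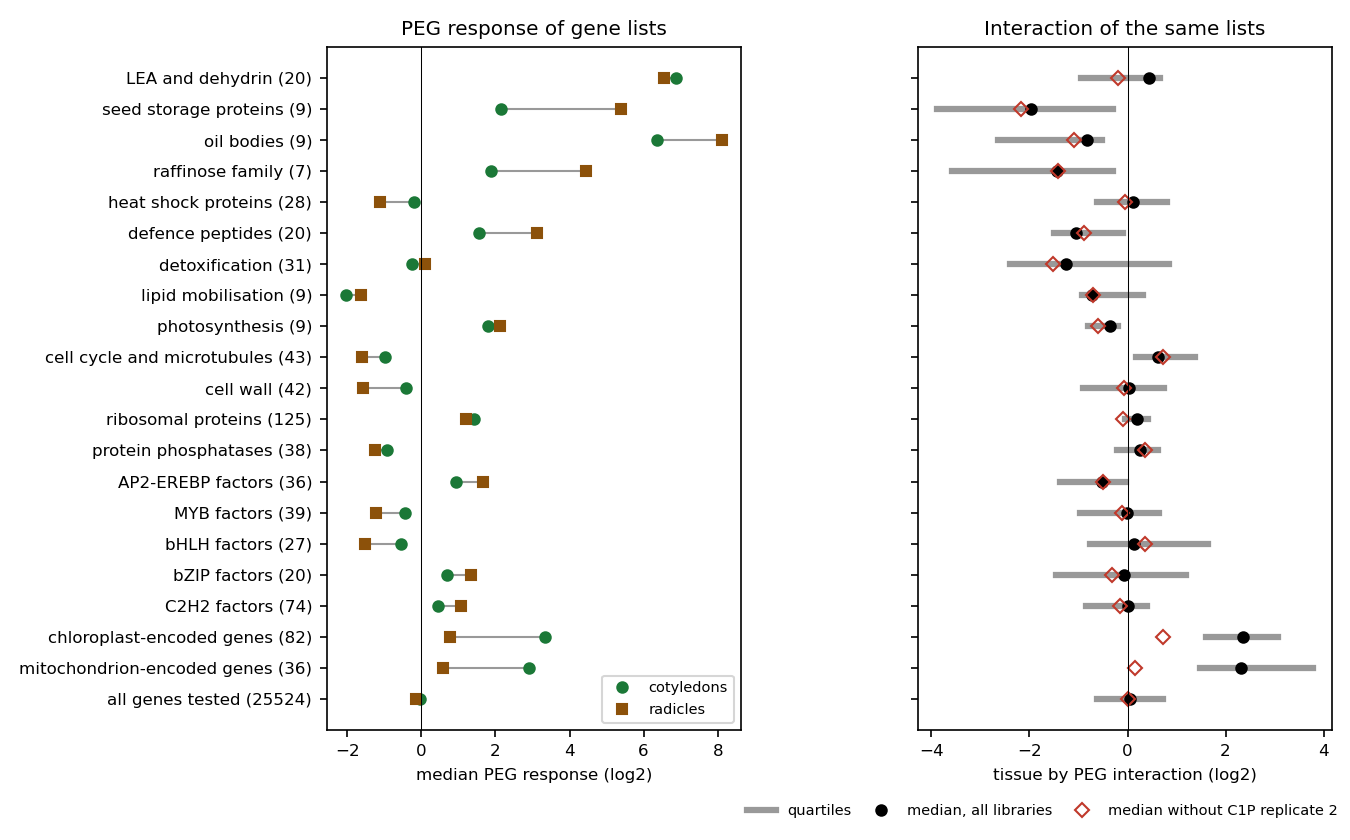
Median log2 PEG response of gene lists in cotyledons (green circles) and radicles (brown squares), left, and the median (black) and quartiles (grey bar) of their log2 tissue by PEG interaction, right, with the number of genes tested in brackets. The red diamonds show the interaction median without C1P replicate 2, which lies near the black point for most lists and at 0.72 in place of 2.35 for chloroplast-encoded and at 0.14 in place of 2.31 for mitochondrion-encoded genes.

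Of 43 genes of cell division and microtubules, 34 were called lower after PEG in radicles and 15 in cotyledons, against 18.1% and 15.3% of all genes. Their median responses were -1.61 and -0.98. Before PEG 30 had been lower in C1 than in R1, against 5720 of all 25524 genes tested. These genes too were selected on R1 against R1P or on chromatin accessibility, so their larger fall in radicles is not independent evidence. The interaction was called higher in 6 (14%, against 4.17% of all genes) and lower in 2 (4.65%, against 4.08%) and was not called in 35, and its median was 0.63, or 0.72 without C1P replicate 2. The kinesin gene MtrunA17_Chr7g0266631, a motor protein of microtubules, had 34.5 and 35.4 CPM in R1 and 3.52 and 3.31 CPM in R1P, and between 1.12 and 2.24 CPM in the 4 cotyledon libraries. The fall was in radicles, while C1 and C1P overlapped. Its interaction was 3.55 (SE 0.41, adjusted p = 0.00024). The tubulin gene MtrunA17_Chr3g0140821, a subunit of microtubules, fell from 3118 and 3347 to 855 and 731 CPM in radicles and from 205 and 183 to 128 and 110 CPM in cotyledons (interaction 1.33, SE 0.26, adjusted p = 0.0063). The kinesin gene MtrunA17_Chr1g0153061 had an interaction of 2.09 (SE 0.43, adjusted p = 0.0089). Both genes called lower were annotated as cyclin-dependent kinase inhibitors of the SMR type, which restrain the cell cycle. MtrunA17_Chr3g0103421 had 64.9 and 68.0 CPM in C1, 29.6 and 21.9 CPM in C1P, 16.1 and 17.6 CPM in R1, and 37.5 and 30.9 CPM in R1P. It fell in cotyledons and rose in radicles, so that the tissues, far apart before PEG, lay closer after it, with R1P above C1P (-2.39, SE 0.27, adjusted p = 0.00024). MtrunA17_Chr8g0334411, named after its values were seen, gave -1.32 (adjusted p = 0.0095).

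Cell wall genes moved in both directions, with 3 of 42 called higher and 3 lower (7.14% each, against 4.17% and 4.08% of all genes). The median of 0.04 turned below 0 with library totals (-0.23) and without C1P replicate 2 (-0.07). In radicles 26 of the 42 were called lower and 14 higher. The extensin-domain gene MtrunA17_Chr1g0161771, a structural wall protein outside this list, had one of the largest interactions, with 122 and 67.3 CPM in R1, 4.09 and 1.95 CPM in R1P and between 0.891 and 1.34 CPM in cotyledons. It was a transcript of untreated radicles, and the interaction was 4.90 (SE 0.81, adjusted p = 0.0026). The cellulose synthase gene MtrunA17_Chr2g0322361 rose in radicles from 3.98 and 5.34 to 37.2 and 41.9 CPM and had 66.6 and 61.5 CPM in C1 and 87.6 and 82.0 CPM in C1P (-2.68, SE 0.30, adjusted p = 0.00021). A further cellulose synthase gene, MtrunA17_Chr3g0102551, went the other way at 1.37 (SE 0.25, adjusted p = 0.0042). The pectinesterase gene MtrunA17_Chr3g0079381, whose enzyme modifies pectin, rose in both tissues, from 4.73 and 3.93 to 152 and 185 CPM in cotyledons and from 167 and 108 to 580 and 515 CPM in radicles, with an interaction of 3.28 (SE 0.48, adjusted p = 0.0013). The pectin-degrading glycoside hydrolase family 28 gene MtrunA17_Chr8g0348491 was called lower (-2.86, adjusted p = 0.00083). Of 2 further members, named after their values were seen, MtrunA17_Chr2g0295241 (1.87) and the cellulose synthase gene MtrunA17_Chr4g0046401 (-1.75) lost their calls without C1 replicate 2, R1 replicate 2 or R1P replicate 1, and the first also without C1P replicate 1.

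Most listed ribosomal protein genes rose in each tissue. The interaction was called in 1 gene of 125 (0.8% higher, against 4.17% of all genes). In cotyledons 104 and in radicles 98 were called higher after PEG, with median responses of 1.43 and 1.22. The median interaction of 0.20 turned to -0.07 with library totals and to -0.09 without C1P replicate 2. The 1 call, MtrunA17_Chr3g0077711 (1.61, adjusted p = 0.050), annotated with a ribosomal protein S5 domain, was lost with each of the 8 libraries left out in turn (1.45 to 1.78, adjusted p up to 0.168).

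Among metabolic genes, a pair of lipoxygenases were called far lower in cotyledons. MtrunA17_Chr2g0329911, a linoleate 9S-lipoxygenase that oxidises free fatty acids, had 11.1 and 15.3 CPM in C1, 26.6 and 17.6 CPM in C1P, 0.492 and 0.615 CPM in R1, and 21.9 and 18.1 CPM in R1P. C1P and R1P overlapped, and R1 alone stood low. The interaction was -4.41 (SE 0.38, adjusted p = 4.9e-05). MtrunA17_Chr2g0329901, of the same annotation, reached 1561 and 1563 CPM in R1P but 180 and 57.2 CPM in C1P, from 0.205 to 2.31 CPM before PEG. Its interaction was -4.75 (SE 0.96, adjusted p = 0.008), and -4.15 without C1P replicate 2. In the list of peroxidases, glutathione transferases and alcohol dehydrogenases, 8 of 31 genes were called lower (25.8%, against 4.08% of all genes). A further 3 were called higher (9.68%, against 4.17%). The median was -1.26, or -1.51 without C1P replicate 2. It was -1.06 with the 12 members that had a group at the floor set to 3 counts. The peroxidase gene MtrunA17_Chr4g0075241 fell from 59.3 and 55.6 to 0.468 and 0.321 CPM in cotyledons and from 37.0 and 29.2 to 1.76 and 1.35 CPM in radicles (-2.74, SE 0.48, adjusted p = 0.0036). Thus it fell in both tissues, and further in cotyledons. The alcohol dehydrogenase gene MtrunA17_Chr3g0125961 also fell further in cotyledons, from 115 and 102 to 8.38 and 8.59 CPM, than in radicles, from 137 and 155 to 39.0 and 38.2 CPM. Its call (-1.76, adjusted p = 0.022) was lost without any of C1 replicates 1 and 2, R1 replicates 1 and 2 and R1P replicates 1 and 2 (adjusted p up to 0.087), and the alcohol dehydrogenase gene MtrunA17_Chr3g0125911 was not called (-0.67, 95% interval -1.49 to 0.15). The cinnamyl-alcohol dehydrogenase genes MtrunA17_Chr5g0411931 (-2.96, adjusted p = 0.0041) and MtrunA17_Chr5g0411871 (-2.20, adjusted p = 0.0056) rose in radicles and were not called in cotyledons. The peroxidase gene MtrunA17_Chr2g0292111 had 38 and 17 counts in C1 and 0 in both C1P libraries, at least 5.87-fold lower, and fell 2.52-fold in radicles, and its interaction was not called (adjusted p = 0.059). The peroxidase gene MtrunA17_Chr5g0404721 had at most 8 counts in any cotyledon library and was not called.

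The 3 detoxification genes called higher were led by the glutathione transferase gene MtrunA17_Chr4g0008781, with 51.7 and 44.0 CPM in R1, 9.73 and 7.27 CPM in R1P, and 11.1 to 15.8 CPM in cotyledons (2.24, SE 0.42, adjusted p = 0.0053). The other 2, named after their values were seen, MtrunA17_Chr5g0405731 and MtrunA17_Chr4g0076641, were at or near 0 counts in R1P. The first lost its call without C1 replicate 2, R1 replicate 2 or R1P replicate 2, and the second with each of the 8 libraries left out. In the list of lipid mobilisation, 1 of 9 genes was called in each direction (11.1%, against 4.17% higher and 4.08% lower over all genes). Both were triacylglycerol lipases, which release fatty acids from stored oil. MtrunA17_Chr7g0225611 fell in cotyledons from 177 and 167 to 35.3 and 48.2 CPM and stayed between 10.0 and 12.8 CPM in the 4 radicle libraries (-2.09, SE 0.29, adjusted p = 0.00097). MtrunA17_Chr4g0068441 fell in radicles from 33.2 and 33.4 to 7.61 and 5.96 CPM (2.06, adjusted p = 0.015), and lost its call without C1 replicate 2, C1P replicate 2, R1 replicate 2 or R1P replicate 2 (1.81 to 2.06, adjusted p up to 0.068). Nuclear photosynthesis genes gave 1 call in 9, the CAAD-domain gene MtrunA17_Chr7g0276381, whose counts were at most 6 in cotyledons and 26 and 47 in R1, and which was lost without R1 replicate 2 or R1P replicate 2 (adjusted p = 0.052 and 0.056). The photosynthesis call, a higher one, was 11.1% of its list, against 4.17% of all genes. Of 8 gibberellin-related genes, 0 were called, against 4.17% higher and 4.08% lower over all genes.

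Of the regulators through which abscisic acid acts in seeds, MtABI4 and MtABI5 had called interactions of opposite sign. MtABI5 (MtrunA17_Chr7g0266211), a bZIP factor, had 24.9 and 22.4 CPM in C1, 276 and 263 CPM in C1P, 50.1 and 59.3 CPM in R1, and 150 and 171 CPM in R1P. It rose in both tissues, cotyledons passing from below to above radicles, with an interaction of 1.95 (SE 0.37, adjusted p = 0.0055). MtABI4 (MtrunA17_Chr5g0437371), an AP2-type factor, had 65.0 and 80.2 CPM in C1, 65.5 and 48.1 CPM in C1P, 10.9 and 9.11 CPM in R1, and 30.5 and 25.7 CPM in R1P. C1 and C1P overlapped, while R1P lay above R1, and the interaction was -1.84 (SE 0.34, adjusted p = 0.0047). The B3-domain factor MtABI3 (MtrunA17_Chr7g0237841) rose by 1.57 in cotyledons and 1.89 in radicles, and its interaction of -0.33 (95% interval -1.04 to 0.39) was not called. Without C1P replicate 2 these 3 values were 1.99, -1.64 and -0.02.

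In other transcription factor families the counts are read against 4.17% called higher and 4.08% lower over all genes tested. In AP2-EREBP, 2 of 36 genes were called higher and 5 lower, in MYB 2 and 4 of 39, in bHLH 6 and 4 of 27, in bZIP 2 and 2 of 20, in C2H2 3 and 9 of 74, in NAM 0 and 2 of 9, and in HD-ZIP 1 and 0 of 3. The share called lower was above that of all genes in AP2-EREBP (13.9%), MYB (10.3%), bHLH (14.8%), bZIP (10%), C2H2 (12.2%) and NAM (22.2%). The share called higher was above that of all genes in AP2-EREBP (5.56%), MYB (5.13%), bHLH (22.2%), bZIP (10%) and HD-ZIP (33.3%, 1 gene of 3). No test was made of these shares, and the listed members were selected on R1 against R1P or on chromatin accessibility, unlike all genes tested. Their median interactions ran from -0.69 in NAM to 0.13 in HD-ZIP. The median of NAM was 0.44 with 4 members at the floor set to 3 counts, and those of bHLH, HD-ZIP and C2H2 turned below 0 with library totals. The AP2 gene MtrunA17_Chr8g0343851 had 282 and 244 CPM in C1, 205 and 209 CPM in C1P, 9.52 and 10.5 CPM in R1, and 52.9 and 48.6 CPM in R1P. It was higher in every cotyledon library than in any radicle library, and the gap narrowed after PEG (-2.69, SE 0.29, adjusted p = 0.00017). The C2H2 gene MtrunA17_Chr3g0138621 rose in radicles from 42.5 and 38.7 to 724 and 773 CPM and in cotyledons from 297 and 302 to 917 and 913 CPM (-2.59, SE 0.32, adjusted p = 0.00038). The bZIP gene MtrunA17_Chr7g0275321 was higher at 2.78 (SE 0.32, adjusted p = 0.00024), since it rose in cotyledons from 20.8 and 14.8 to 73.5 and 65.4 CPM and had 92.9 and 125 CPM in R1 and 61.2 and 62.8 CPM in R1P. The bHLH gene MtrunA17_Chr7g0262691 reached 82.3 and 81.1 CPM in C1P and 41.6 and 33.7 CPM in R1P from 2.004 to 4.419 CPM before PEG (1.89, SE 0.33, adjusted p = 0.0035). The E2F-DP gene MtrunA17_Chr1g0177351, of a family that drives entry into DNA replication, was called in opposite directions in the tissues, at 1.36 in cotyledons and -1.47 in radicles (interaction 2.83, SE 0.37, adjusted p = 0.00062). Of 38 protein-serine/threonine phosphatase genes, 4 were called higher (10.5%) and 3 lower (7.89%), with a median of 0.26. Of these, MtrunA17_Chr1g0158781 rose from below 0.6 to 40.4 and 67.7 CPM in cotyledons and from 2.54 and 3.15 to 48.8 and 45.8 CPM in radicles (2.79, SE 0.44, adjusted p = 0.002).

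The remaining called members of these families moved in either tissue. The AP2 gene MtrunA17_Chr5g0412151 rose from 0.633 and 0.631 to 5.00 and 6.41 CPM in cotyledons and from 15.3 and 14.0 to 39.1 and 29.6 CPM in radicles, where its level was higher throughout (1.93, adjusted p = 0.0041). The AP2 gene MtrunA17_Chr1g0203861 rose in both tissues and further in radicles (-1.69, adjusted p = 0.015). The MYB gene MtrunA17_Chr4g0008551 (-1.95) and the NAM gene MtrunA17_Chr8g0384721 (-1.30) rose in radicles and were not called in cotyledons, and the NAM gene MtrunA17_Chr1g0197351 (-1.22) rose in both. The MYB gene MtrunA17_Chr1g0187761 (-1.68) fell in both tissues and further in cotyledons. The MYB gene MtrunA17_Chr6g0488471 rose in cotyledons from 0.372 and 0.223 to 4.21 and 4.10 CPM, while R1 and R1P overlapped between 2.74 and 5.03 CPM (4.30, adjusted p = 0.00073). MtrunA17_Chr5g0404101, also of the MYB family, had 0 counts in both C1P libraries, 9 and 3 in C1, 1 and 3 in R1 and 50 and 92 in R1P, so its call rests on the rise in radicles. The HD-ZIP gene MtrunA17_Chr4g0055851 fell in radicles from 58.3 and 60.4 to 23.9 and 29.2 CPM and was not called in cotyledons (1.70, adjusted p = 0.0029). Among C2H2 genes, MtrunA17_Chr1g0152661 (-2.20) and MtrunA17_Chr7g0248061 (-2.19) rose in radicles alone by call, and MtrunA17_Chr1g0209561 (-2.47) fell in both tissues. The bHLH gene MtrunA17_Chr4g0061791 (1.70) fell in radicles and was not called in cotyledons, MtrunA17_Chr3g0134001 (-1.22) rose in radicles, and MtrunA17_Chr5g0402031 (-1.61) fell in both, as the bZIP gene MtrunA17_Chr8g0347741 (-1.45) rose in radicles. Among phosphatase genes, MtrunA17_Chr7g0272061 (1.97) fell in radicles, MtrunA17_Chr4g0070871 (-1.76) fell in cotyledons and MtrunA17_Chr4g0051661 (-2.67) rose in radicles, each without a call in the other tissue. Leaving out R1P replicate 1 ended the calls of MtrunA17_Chr1g0203861, MtrunA17_Chr1g0197351, MtrunA17_Chr1g0187761, MtrunA17_Chr4g0061791, MtrunA17_Chr3g0134001 and MtrunA17_Chr5g0402031, and leaving out R1 replicate 2 ended the calls of these genes other than MtrunA17_Chr1g0187761 and MtrunA17_Chr5g0402031, and that of MtrunA17_Chr4g0051661. C1 replicate 1, when left out, ended the calls of MtrunA17_Chr1g0203861, MtrunA17_Chr1g0197351, MtrunA17_Chr5g0402031 and MtrunA17_Chr8g0347741, R1 replicate 1 those of the last 2, R1P replicate 2 those of MtrunA17_Chr8g0347741 and MtrunA17_Chr3g0134001, and C1 replicate 2 that of MtrunA17_Chr3g0134001 (adjusted p up to 0.088).

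Other called members were named after their values were seen. The calls of the AP2 genes MtrunA17_Chr1g0158971 (1.54), MtrunA17_Chr1g0196781 (-1.80) and MtrunA17_Chr1g0189941, which was at 0 counts in R1, of the MYB genes MtrunA17_Chr5g0402631 (1.22) and MtrunA17_Chr2g0331031 (-1.33), and of the bHLH genes MtrunA17_Chr2g0323031 (-1.08) and MtrunA17_Chr2g0319301 (-1.27) were each lost without at least 5 of the 8 libraries in turn. The same held for the C2H2 gene MtrunA17_Chr3g0123481 (1.25) and the phosphatase genes MtrunA17_Chr1g0186811 (-1.16) and MtrunA17_Chr6g0459861, which was at 0 counts in R1P. The phosphatase gene MtrunA17_Chr1g0153671 (1.52) lost its call without C1 replicate 1, R1 replicate 2 or R1P replicate 1. The C2H2 genes MtrunA17_Chr6g0457221 (2.41), which fell in radicles from 14.9 and 15.5 to 3.11 and 2.81 CPM, and MtrunA17_Chr4g0043501 (1.45) were called with any 1 library left out.

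Several annotated genes outside these lists were among the largest interactions. A beta-galactosidase gene, MtrunA17_Chr3g0130711, had 27.0 and 31.2 CPM in C1, 137 and 115 CPM in C1P, 531 and 579 CPM in R1, and 220 and 269 CPM in R1P. It rose in cotyledons and fell in radicles, with no overlap between the groups (3.30, SE 0.27, adjusted p = 4e-05). The acylglycerol lipase gene MtrunA17_Chr3g0123881 had the same pattern, 4.84 and 4.30 to 17.9 and 23.7 CPM in cotyledons and 13.9 and 11.5 to 5.54 and 3.86 CPM in radicles (3.61, SE 0.41, adjusted p = 0.00022). The carboxypeptidase C gene MtrunA17_Chr7g0249431 fell in radicles from 36.6 and 40.3 to 2.33 and 2.66 CPM, whereas C1 and C1P overlapped between 26.9 and 37.4 CPM (3.88, SE 0.30, adjusted p = 3.5e-05). The (S)-2-hydroxy-acid oxidase gene MtrunA17_Chr2g0312931, of a family that includes the glycolate oxidase of photorespiration, fell from 23.4 and 26.3 to 1.501 and 2.054 CPM in radicles and had 101 to 143 CPM in the cotyledon libraries (3.41, SE 0.30, adjusted p = 5.3e-05). The trehalose-phosphatase gene MtrunA17_Chr8g0382441 was called in cotyledons and not in radicles, and rose from 2.72 and 1.86 to 28.2 and 28.8 CPM in cotyledons, while R1 and R1P overlapped between 8.33 and 12.5 CPM (3.45, SE 0.35, adjusted p = 0.00012). An MFS transporter gene, MtrunA17_Chr8g0369621 (3.73), an STP-type sugar transporter gene, MtrunA17_Chr4g0048411 (3.42), and a purine-nucleoside phosphorylase gene, MtrunA17_Chr4g0008361 (3.31), completed the 10 highest. The last fell to 2.06 without C1P replicate 2, in which it had 56.53 CPM against 14.99 CPM in C1P replicate 1.

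On the lower side, MtrunA17_Chr7g0263161, annotated as angiotensin-converting enzyme 2, a peptidase name taken from animals, was called in opposite directions in the tissues. It had 107 and 96.3 CPM in C1, 32.6 and 26.5 CPM in C1P, 3.49 and 4.34 CPM in R1, and 27.3 and 22.7 CPM in R1P. The tissues were far apart before PEG and close together after it (-4.46, SE 0.35, adjusted p = 3.5e-05). MtrunA17_Chr3g0118711, a cyanohydrin beta-glucosyltransferase gene, had 34.7 to 48.1 CPM in the cotyledon libraries and rose in radicles from 0.492 and 0.384 to 9.89 and 9.37 CPM (-4.11, SE 0.34, adjusted p = 4e-05). Its counts were not whole in any of the 8 libraries. MtGIF1 (MtrunA17_Chr1g0190481), whose protein is a coactivator of growth-regulating factors, fell in cotyledons from 521 and 503 to 145 and 259 CPM and rose in radicles from 71.3 and 62.5 to 167 and 165 CPM (-2.65, SE 0.50, adjusted p = 0.0053). The oligopeptide transporter gene MtrunA17_Chr7g0255621 (-2.80) and the unannotated gene MtrunA17_Chr2g0295141 (-3.31) also fell in cotyledons and rose in radicles. In the reverse direction, 4 genes with no annotation rose in cotyledons and fell in radicles by the largest amounts. Of these, MtrunA17_Chr5g0395561 had 5.77 and 6.38 CPM in C1, 21.0 and 22.8 CPM in C1P, 21.2 and 21.0 CPM in R1, and 6.26 and 5.31 CPM in R1P. C1 and R1P lay at one level and C1P and R1 at another (3.72, SE 0.26, adjusted p = 2.1e-05). The other 3 were MtrunA17_Chr2g0331261 (4.04), MtrunA17_Chr4g0030431 (3.92, or 2.82 without C1P replicate 2) and MtrunA17_Chr7g0262791 (3.62).

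Most called genes, 1513 of 2105, had no annotation in the tables used. The largest and smallest values among them were of the same size as in annotated genes. MtrunA17_Chr8g0347281 was 5.27 (SE 0.71, adjusted p = 0.00073), with 0.311 and 0.0501 CPM in R1P against 7.71 and 4.88 CPM in R1 and 15.6 to 27.5 CPM in cotyledons. MtrunA17_Chr3g0141011 was 4.82 (SE 0.32, adjusted p = 2.1e-05), rising in cotyledons from below 0.2 to 16.3 and 14.3 CPM. MtrunA17_Chr6g0472451 had 21.2 and 19.1 CPM in C1, 0.260 and 0.192 CPM in C1P, and 29.6 to 32.4 CPM in the radicle libraries. It fell in cotyledons with R1 and R1P overlapping (-6.45, SE 0.63, adjusted p = 9.4e-05). MtrunA17_Chr7g0263321 fell in both tissues and further in cotyledons (-4.68, SE 0.42, adjusted p = 5.6e-05).

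The values of genes encoded in the organelles depended on which C1P library was used. The 82 chloroplast-encoded genes had a median interaction of 2.35, with 5 called higher and 0 lower. The share called higher was 6.1%, and 8.33% among mitochondrion-encoded genes, not far from the 4.17% of all genes. Of the 82 genes, 77 were called higher after PEG in cotyledons and 19 in radicles, against 14.2% and 13.5% of all genes. Without C1P replicate 2 the median was 0.72 and 1 gene was called, and without C1P replicate 1 the median was 3.04 and 54 were called higher. The 36 mitochondrion-encoded genes had a median of 2.31 with 3 called higher, a median of 0.14 with 0 called without C1P replicate 2, and one of 3.14 with 8 called higher without C1P replicate 1. The median chloroplast-encoded gene had 9.92 and 9.20 CPM in C1, 31.1 and 182 CPM in C1P, 3.83 and 1.84 CPM in R1, and 6.08 and 6.36 CPM in R1P. Both C1P libraries lay above C1, by unequal amounts. MtrunA17_CPg0493041 was the member that kept its call without C1P replicate 2 (4.82, and 3.97 without it, adjusted p = 0.023), with 10.8 and 28.3 CPM in C1P and at most 0.461 CPM in radicles. It was lost without R1 replicate 2 (adjusted p = 0.052). The other calls, those of MtrunA17_CPg0492511, MtrunA17_CPg0492891, MtrunA17_CPg0492981 and, named after its values were seen, MtrunA17_CPg0492541, and of MtrunA17_MTg0490461, MtrunA17_MTg0490961 and MtrunA17_MTg0491801, were all lost without C1P replicate 2 and without at least 4 other libraries each. With the organelle-encoded genes left out of the counts and totals, an alternative chosen after seeing the data, 1078 genes were called higher and 1034 lower.

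The same contrast in the 8 libraries of 5 mm seeds, which share no library with the 1 mm contrast, called 2942 genes higher (11.5%) and 2418 lower (9.47%), 21% in all. Of the 1064 genes called higher at 1 mm, 532 (50%) were called higher and 24 lower at 5 mm, and their median interaction there was 1.19. Of the 1041 called lower at 1 mm, 601 (57.7%) were called lower and 16 higher, with a median of -1.40. The sign was the same at 5 mm in 936 and 937 genes. Across the 2105 genes, which are not independent replicates, the Pearson correlation of the interactions was 0.705, and across all 25524 genes 0.291. The interaction was -3.89 at 1 mm and -4.07 at 5 mm for the 11-S gene MtrunA17_Chr7g0261351, and 3.30 and 3.22 for the beta-galactosidase MtrunA17_Chr3g0130711. It was -2.92 and -4.13 for the oleosin MtrunA17_Chr7g0227501 and -3.53 and -4.28 for the galactosyltransferase MtrunA17_Chr7g0257731. In the cell cycle list, 26 of 43 genes were called higher at 5 mm against 6 at 1 mm, and the median was 1.57 against 0.63. The chloroplast-encoded genes had a median of -0.08 at 5 mm with 0 called.

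**Figure D5:**
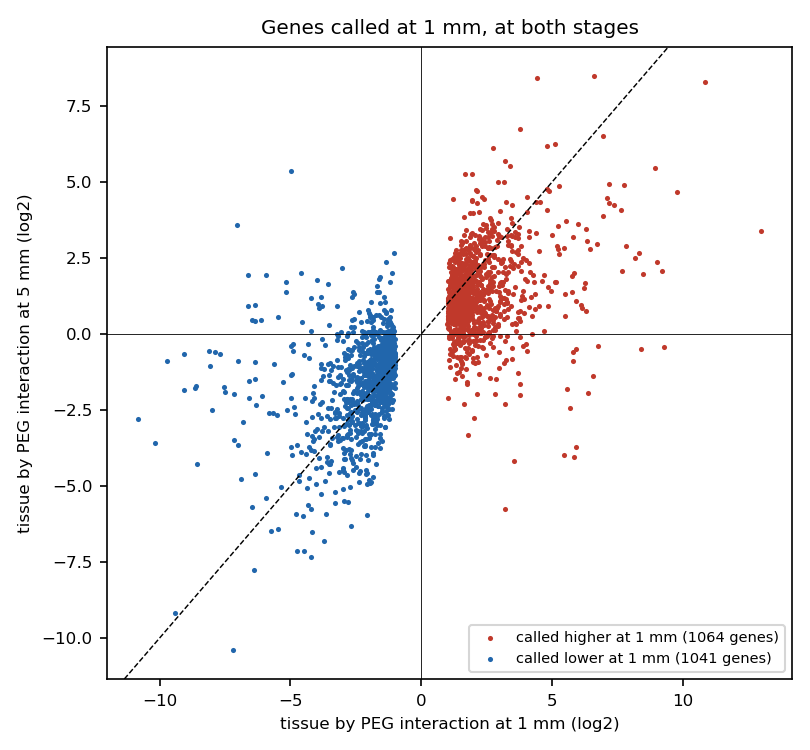
Log2 tissue by PEG interaction at 1 mm (horizontal axis) and at 5 mm (vertical axis) of the 2105 genes called at 1 mm, red for the 1064 higher and blue for the 1041 lower in cotyledons. Most points lie in the quadrants of equal sign, 936 of the higher and 937 of the lower genes.

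The difference between the 2 interactions, a test added after the data were seen, was called in 432 genes (1.69%), 217 more positive at 1 mm (0.85%) and 215 more negative (0.842%), and 153 of these were among the 2105. MtrunA17_Chr5g0395561 changed sign, from 3.72 at 1 mm to -1.29 at 5 mm, a difference of 5.01 (SE 0.36, adjusted p = 6e-05). At 5 mm it fell in both tissues, from 34.9 and 28.8 to 4.61 and 3.69 CPM in cotyledons and from 130 and 139 to 43.3 and 42.7 CPM in radicles. The alcohol dehydrogenase gene MtrunA17_Chr3g0125911, not called at 1 mm, had an interaction of -4.38 at 5 mm, where it fell in cotyledons from 103 and 60.8 to 6.35 and 6.29 CPM and had 86.5 and 79.8 CPM in R5 and 111 and 156 CPM in R5P (difference 3.71, SE 0.52, adjusted p = 0.0049). The bZIP gene MtrunA17_Chr7g0266041 rose more in radicles at 1 mm (-1.59) and more in cotyledons at 5 mm (1.87, difference -3.46, SE 0.44, adjusted p = 0.003). The 6'-deoxychalcone synthase gene MtrunA17_Chr3g0121001 (2.70 at 1 mm, -0.12 at 5 mm) and the cation/H+ exchanger gene MtrunA17_Chr5g0397051 (-3.52, 0.29) had a call at 1 mm alone. The nitrate transporter gene MtrunA17_Chr4g0056431 was at 0 counts in both C1P libraries, against 35 and 27 in C1, at least 6.62-fold lower, and fell 2.17-fold in radicles. At 5 mm its cotyledon level was below 0.7 CPM in every library, so its large difference between stages (called, adjusted p = 0.0094) rests on a few counts.

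The study sorted its PEG-induced and PEG-repressed radicle genes into clusters. The genes were selected on R1 against R1P and clustered on the radicle libraries of both stages, among them the 4 that enter the interaction, and the direction of those lists here is not independent evidence. Over all genes, 4.17% were called higher and 4.08% lower. Of 924 tested genes of cluster 1, raised in R1P, 15 (1.62%) were called higher and 87 (9.42%) lower, with a median of -0.33. In the copy of cluster 2 used here, 12 (1.15%) and 152 (14.6%) of 1039 were, with a median of -0.57. In cluster 6, lowered in R1P, 145 (9.48%) of 1529 were called higher and 30 (1.96%) lower, with a median of 0.58. In cluster 7, also lowered in R1P, 40 (11.6%) and 5 (1.45%) of 344 were, with a median of 0.56. In cluster 5, 15 (14.7%) were called higher and 6 (5.88%) lower of 102, with a median of 0.75. Cluster 6 held the gene MtrunA17_Chr7g0268631, annotated as an actin-binding Networked protein, which fell in radicles from 12.22 and 14.98 to 0.518 and 0.601 CPM and was not called in cotyledons (5.17, adjusted p = 4.9e-05). The replication protein A gene MtrunA17_Chr1g0148131 of cluster 7, a subunit of the complex that binds single-stranded DNA, fell from 32.2 and 32.9 to 9.63 and 8.52 CPM in radicles and was not called in cotyledons (2.75, adjusted p = 0.00018). The 5 genes of cluster 7 called lower were the C2H2 gene MtrunA17_Chr1g0209561 (-2.47), the serine/threonine protein kinase gene MtrunA17_Chr1g0186431 (-2.36) and, named after their values were seen, the carboxypeptidase D gene MtrunA17_Chr1g0199991 (-1.93), the peroxidase gene MtrunA17_Chr2g0292151 (-1.37) and the ribonuclease H domain gene MtrunA17_Chr2g0318211, at 0 and 1 counts in C1P, and all 5 fell in both tissues. The call of the peroxidase gene was lost without C1 replicate 2, C1P replicate 1, R1 replicate 2 or R1P replicate 1. Within cluster 1, the 86 tested genes with more accessible chromatin in R1P by ATAC-Seq gave 1 higher and 23 lower calls (26.7%, median -0.47), and the 838 others 14 and 64 (7.64%, median -0.32). The 86 genes also had larger median PEG responses, at 3.25 in cotyledons and 4.41 in radicles, against 1.199 and 1.38 in the 838 others. Whether the shares of calls differ between genes with responses of similar size was not tested. Over all 641 tested genes with a region more accessible in R1P, 24 (3.74%) were called higher and 96 (15%) lower (median -0.22). The 211 genes of the copy used here with regions more accessible in the untreated, desiccation-sensitive state gave 17 (8.06%) and 9 (4.27%). Their median was 0.23, or 0.003 with library totals. Among the cluster 1 genes with more accessible chromatin, the cathepsin L gene MtrunA17_Chr1g0199131, a protease, had 739 and 778 CPM in C1, 3802 and 4027 CPM in C1P, 45.6 and 39.5 CPM in R1, and 2424 and 2472 CPM in R1P. It rose in both tissues, and R1 lay below the other 3 groups (-3.48, SE 0.32, adjusted p = 6.5e-05). The hydroperoxide lyase gene MtHPL (MtrunA17_Chr2g0322321) rose in radicles from 4.35 and 4.15 to 37.0 and 33.3 CPM and was not called in cotyledons, at 93.7 to 184 CPM (-2.23, SE 0.23, adjusted p = 0.00014). The 1 member called higher, the GATA factor gene MtrunA17_Chr3g0140331, was named after its values were seen and rose by 3.75 in cotyledons and 1.97 in radicles (1.77, adjusted p = 0.0027).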

How the data were processed

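RNA-Seq was carried out on 16 libraries, 2 per group, of cotyledons and radicles from seeds with a 1 mm or 5 mm radicle, with and without PEG. The deposited table holds expected counts, which the authors made by quality control with FastQC and by assigning reads to transcripts of the *Medicago* reference with Salmon 1.2, and which need not be whole: between 14.9 and 21.2% of the values of a library differed from a whole number by more than 0.001. Reads shared by similar transcripts are divided by estimation in such a table. The counts were rounded to whole numbers and analysed with edgeR 4.0.16 in R 4.3.3, with limma 3.58.1. Low counts were filtered by group, libraries were scaled by TMM, and a quasi-likelihood model with 1 term per group was fitted to all 16 libraries. The other 8 libraries thus share the estimate of the spread. The p-values were adjusted by the Benjamini-Hochberg method over all 25524 genes tested, and genes with an adjusted p below 0.05 and a log2 value beyond 1 or -1 were called. Intervals are at 95%. CPM values use TMM-adjusted totals, and a group whose libraries both had 3 counts or fewer was taken as at the floor and, for bounds and floored medians, set to 3 counts per library. Intervals and floors do not cover more than the fitted or counting error.

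Replicates of a group differed by more than sampling noise, with a chi-square of 9.67 to 121 per gene, and none was merged. The labels call them biological replicates, and whether a replicate was a separate sowing is not given in the sources used here. Names and annotations came from the study's supplementary tables, which hold 4748 of the 44473 identifiers, 961 of them only as putative or hypothetical proteins, and the reference table of gene names matched 0. Lists were made by words in these annotations, and some of the tables are shortened in the copies used. The tables hold genes that the study called between R1 and R1P, or found in regions of differing chromatin accessibility. Lists by annotation are therefore not samples of all genes.

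The members and the lists were chosen with earlier results of these data known. Genes were named if the study names them by identifier, if they were among the 10 largest or 10 smallest called interactions with an annotation (mean of at least 10 CPM, no group at the floor, the same sign whichever replicate of each group is taken), if they were among the 4 in each direction with the largest calls of opposite sign in the tissues, if they were among the 4 smallest p-values of a list's called members, or if they were among the 2 largest or 2 smallest without annotation. The conditions in brackets also held for the genes called in opposite directions and for those without annotation. A further 25 called members of lists with few calls were named after their values were seen. The test of the difference between stages was added after the data were seen. Alternatives were scaling by library totals or by RLE size factors, calls by adjusted p alone, no low-count filter, a test against the fold threshold (TREAT), a replicate block, the 8 libraries of 1 mm seeds alone, DESeq2 1.42.0 and each library left out in turn. A crossed replicate block and a run without organelle-encoded genes were added after seeing the data. The method was tested on simulated data beforehand.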

Additional observations from a re-analysis of the deposited data

Results flagged for a closer look

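The response to PEG differed between cotyledons and radicles of 1 mm seeds in 2105 genes by the test of the interaction. The interaction itself differed between 1 mm and 5 mm seeds in 432 genes. Differences between stages are given as the 1 mm interaction minus the 5 mm interaction on the log2 scale.

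Among named genes with a call at 1 mm and none at 5 mm, the difference was -2.54 for MtleguminB (MtrunA17_Chr1g0185841), -1.82 for MtHPL (MtrunA17_Chr2g0322321) and -3.81 for the cation/H+ exchanger gene MtrunA17_Chr5g0397051. It was 2.83 for the 6'-deoxychalcone synthase gene MtrunA17_Chr3g0121001, 2.52 for MtrunA17_Chr4g0052411, annotated with a peptidase M41 domain, 2.23 for the mitogen-activated protein kinase gene MtrunA17_Chr5g0397261, 2.19 for the phosphatase gene MtrunA17_Chr7g0272061, 1.93 for the MYB gene MtrunA17_Chr5g0402631 and 3.29 for the unannotated gene MtrunA17_Chr7g0262791. The fitted value of the nitrate transporter gene MtrunA17_Chr4g0056431, -7.54, was made with C1P at 0 counts and is no bound.

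Genes called in the same direction at both stages differed in size. The value was -2.36 for MtrunA17_Chr7g0263161 and -2.01 for the glucosyltransferase gene MtrunA17_Chr3g0118711, both further below 0 at 1 mm, and 2.25 for MtrunA17_Chr2g0295141, which was further below 0 at 5 mm. The alcohol dehydrogenase gene MtrunA17_Chr3g0125911, called at 5 mm and not at 1 mm, had 3.71. The sign of the called interaction turned between stages in MtrunA17_Chr5g0395561 (5.01) and in the bZIP gene MtrunA17_Chr7g0266041 (-3.46).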

How the results depend on the processing

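Of the 2105 interaction calls, 2098 were shared with RLE size factors, 2074 with DESeq2, 1972 without the filter on low counts and 1543 in the 8 libraries of 1 mm seeds alone, where 749 genes were called higher and 974 lower. An unadjusted p under 0.05 was met by 5979 genes. With library totals the interaction was called higher in 647 genes, cotyledons had 1787 genes higher and 7436 lower after PEG, and radicles had 2264 higher. The test against the fold threshold called 216 interactions higher and 252 lower at 1 mm, 1104 and 986 at 5 mm, 1764 PEG responses higher and 1848 lower in cotyledons, and 1712 and 2224 in radicles. With each library of the 1 mm contrast left out in turn, 552 to 1290 interactions were called higher and 561 to 1311 lower, and a group left with 1 library was assumed to vary like the others. Both upper ends came without C1P replicate 1, where the sign changed in 1 of the 2105 genes, against 0 under the other alternatives. PEG responses then ranged from 2882 to 3858 higher and 3035 to 4080 lower in cotyledons and from 2806 to 3504 and 3422 to 4785 in radicles, and 5 mm interactions from 2696 to 3261 and 2207 to 2638.

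Of 137 named genes with a call, 90 were called whichever library was left out, 47 were not, and 72 passed the test against the fold threshold. The medians of the heat shock, ribosomal protein, cell wall, bHLH, HD-ZIP and C2H2 lists changed sign with library totals, and those of the LEA, heat shock, ribosomal protein, cell wall, HD-ZIP and C2H2 lists without C1P replicate 2. Deviations of same-numbered libraries correlated between -0.04 and 0.04 over the 1 mm groups, except for C1 with C1P at -0.29. Such correlations, from 2 libraries per group, cannot show whether same-numbered libraries came from the same seeds. With a replicate block 971 genes were called higher and 1007 lower, 1909 of them shared. A crossed replicate block, chosen after seeing the data, called 1038 and 1020. With 2 libraries per group and a common coefficient of variation of 0.247, differences in transcripts near 3 counts per library, 0.111 to 0.192 CPM, were not detectable at this depth.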
